A study of Sus scrofa with 70 samples.

Results

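Isoform usage was compared between the testes of 2 pig breeds. The share of an isoform is its abundance as a percent of the summed abundance of all transcripts of its gene, in TPM (an abundance per length, scaled to 1 total in every library). Genes entered when the annotation held 2 or more transcripts and the gene had at least 5 TPM in all 6 testis RNA-seq libraries, which left 8589 of the 42,873 annotated genes. Diannan small-ear pigs (DSE) were compared with the Banna mini-pig inbred line (BMI), which was bred from DSE pigs by inbreeding. All samples came from boars aged 12 months that had been kept at controlled temperature and humidity, with no treatment. Each breed had 3 testis libraries of short-read RNA-seq and 1 of PacBio Iso-seq, a method that reads whole transcripts. The same was measured in epididymis and in the vesicular, prostate and bulbourethral glands. No source used here said that the 3 libraries of a breed came from separate animals, so p-values measure the spread between these libraries.

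Most genes give rise to several mRNAs through alternative promoters, splice sites, exons and polyadenylation sites. An intron is cut between a donor site at its 5′ end and an acceptor site at its 3′ end, and nearly all introns carry the bases GT and AG at these ends. The testis is known for a wide range of isoforms, many of them used by germ cells only. An isoform can change the protein, or it can leave the coding sequence (CDS) as it is and change the untranslated ends (UTRs) that bear on translation, stability and localisation.

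The testis label was checked against marker genes. The 12 spermatid markers summed to 78,919 to 97,938 TPM in BMI and 26,232 to 119,902 TPM in DSE, while epididymis markers summed to 7.02 to 13.8 TPM and reached 11,665 TPM in a library of another gland. DSE replicate 2 stood apart. Its spermatid markers summed to 26,232 TPM against at least 78,919 TPM in the other 5 libraries, its spermatocyte markers to 139 TPM against at least 339 TPM, its Leydig cell markers to 63,648 TPM against at most 32,451 TPM and its Sertoli cell markers to 3885 TPM against at most 1974 TPM. The markers also separated the breeds without that library. Leydig cell markers summed to 23,966 TPM or more in every DSE library and 21,844 TPM or less in BMI, Sertoli cell markers to at least 1405 TPM in DSE and at most 1290 TPM in BMI, and spermatocyte markers to at most 403 TPM in DSE and at least 443 TPM in BMI, while spermatid markers overlapped. The part of these shifts in the differences in isoform share was not tested. In such bulk samples fewer cells of a type and less RNA per cell cannot be told apart. The Sertoli cell sum also reached 19,460 TPM in a library of another gland, so that it is not particular to these cells. No pair of libraries held identical values.

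A distance between libraries was taken as the share that moved from one isoform to another, averaged over the 8589 genes. It was 11.9 to 12.4 points between BMI libraries, 15.3 to 19.5 points between DSE libraries and 13.0 to 18.2 points between breeds. The mean between breeds exceeded the mean within breeds by 1.10 points, with p = 0.1 in a two-sided exact permutation test, the smallest p that 3 against 3 libraries allow. DSE libraries thus differed from each other by as much as they differed from BMI libraries, and the pairs with the longest distances within and between breeds held DSE replicate 2. The SD of a share over 3 libraries had a median of 5.68 points in DSE and 3.81 points in BMI. Values without DSE replicate 2 are given beside the counts of calls.

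**Figure D1:**
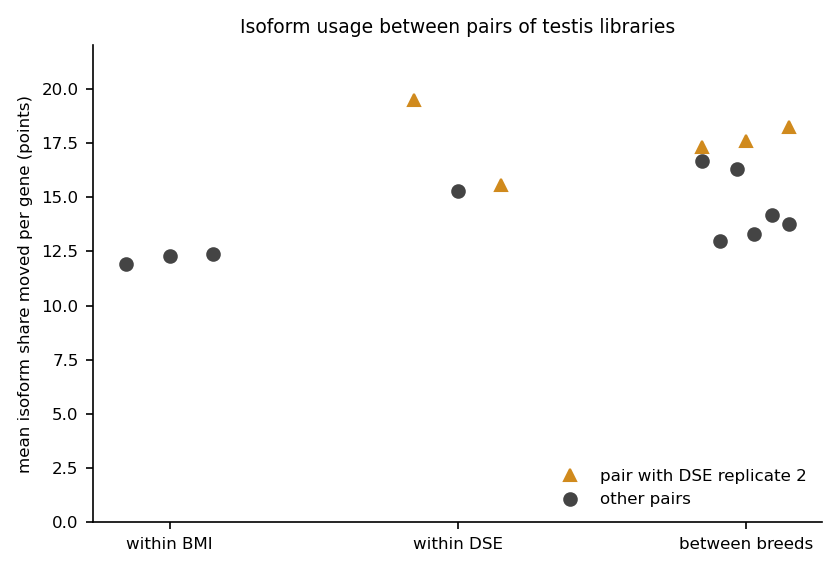
Mean isoform share moved per gene, in points, for each pair of testis libraries, grouped by whether both came from BMI, both from DSE or 1 from each. Triangles mark pairs with DSE replicate 2, which reach 19.5 points within DSE and 18.2 points between breeds, against 11.9 to 12.4 points within BMI.

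In most genes the same isoform led in both breeds. The main isoform of a breed is the one with the highest mean share over its 3 libraries. It held a median of 64.7% of the gene in DSE and 65.3% in BMI, and 1 isoform led in all 6 libraries in 5780 (67.5%) of the 8558 genes with 2 or more transcripts in the TPM table. The other 31 genes had 1 measured transcript, at 100% by construction. The main isoform differed between the breeds in 940 genes (10.9%). Many of these were near ties, since the first and second isoform lay less than 5 points apart in a breed in 604 of the 940. A full change, with 1 isoform leading in all 3 libraries of a breed and another in all 3 of the other breed, was found in 74 genes (0.862%). With a library less to meet this rule the count rose, to 113, 114 and 121 without BMI replicates 1, 2 and 3, 160 without DSE replicate 1, and 147 without DSE replicate 2 or 3. These counts describe the libraries and carry no test. At the edge of the set, the lowest of the 6 TPM values was 5.001 in JHY, 5.008 in PTPRU and 5.01 in CASP2, which entered, and 4.9965 in CCNQ and 4.99527 in DENND2A, which did not.

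Few isoforms passed the test for a difference in share. In simulated data the same test found 0% of planted differences of 20 points and 38.5% of those of 40 points. A low count of calls thus does not mean few differences. limma was fitted to the 24,520 transcripts with a mean share of at least 5%, and a difference was called at a Benjamini-Hochberg adjusted p below 0.05 and at least 10 points. This called 49 transcripts, 0.2% of those tested. The share was higher in DSE for 17 (0.0693%) and lower for 32 (0.131%). They lay in 39 genes, of which 29 had different main isoforms in the breeds, 13 of them with a full change. The lowest adjusted p was 0.00969, and 2250 transcripts (9.18%) had an unadjusted p below 0.05. With fewer libraries the count fell: it was 0 without BMI replicate 1, 1 without BMI replicate 2, 0 without BMI replicate 3, 19 without DSE replicate 1 and 5 without DSE replicate 3, while 44 were called without DSE replicate 2. None of the 49 was among the calls without a BMI replicate, 17 of the 49 were called again without DSE replicate 2, and no difference changed its sign. The size of the 49 differences without DSE replicate 2 was 0.913 to 1.08 times that with it. On a log ratio scale 14 of the 49 calls were lost, on an arcsine scale 5 and with robust variance moderation 19. The genes in which a call was lost on the log ratio or arcsine scale were CACNA2D4, C1orf141 (1 of 2 calls), EPN2 (1 of 2), GIGYF1, JARID2, NCOA1, PPP1R36, RNF6, SLC6A6, ENSSSCG00000045735 (1 of 2), ENSSSCG00000062012 and a fusion locus that overlaps GSTA1. Of these 3 settings, only robust moderation ended the second call of EPN2 and calls in ATF6B, ATP6V1E2, ATXN2, JADE1, TRAPPC4, ENSSSCG00000040135, ENSSSCG00000057041 and ENSSSCG00000062469. Transcripts of a gene share 1 total, so that several calls in a gene are not independent.

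Many of the called isoforms were nearly absent from a breed. Of the 32 isoforms lower in DSE, 17 had a share below 1% in all 3 DSE libraries with at least 16.2% in every BMI library, and of the 17 higher in DSE, 7 had a share below 1% in all 3 BMI libraries with at least 17.0% in every DSE library. Full-length reads of such an isoform were found in the breed where its share was below 1% for 6 of the 17 in DSE and 2 of the 7 in BMI. The isoform of ENSSSCG00000062012 listed at 0 TPM in DSE had 7 reads in DSE and 11 in BMI, and that of JADE1 had 2 and 3. A share of 0% below means that the isoform was listed at 0 TPM. The libraries of the breeds did not overlap in any of the 49, where 0.2% of all transcripts were called, but passing the test with 3 libraries a breed leaves little room for overlap and this count adds no support. The share of all tested transcripts without overlap was not counted, so that the same remark on single genes below adds no support either.

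SIN3B, a scaffold protein of a corepressor complex that brings histone deacetylases to DNA, changed its main isoform through an intron in the last exon. The main isoform in DSE kept the 1083 bases of chr2:60750757-60751839 (minus strand, Sscrofa11.1), and the main isoform in BMI lacked them. This intron lies in the 3′ UTR, has the usual GT and AG ends, and leaves the CDS at 3366 bases in both. The isoform that kept it held 87.0%, 95.7% and 97.0% of SIN3B in the 3 DSE libraries and 20.7%, 24.6% and 38.2% in the BMI libraries. The isoform without it held 0%, 0% and 1.04% in DSE and 65.8%, 63.0% and 50.6% in BMI. The groups did not overlap for either, and the differences of DSE minus BMI were 65.4 points ± 5.82 (SE, limma adjusted p = 0.0304) and -59.5 points ± 5.03 (adjusted p = 0.0258). Both ends of the intron are shown, with the bases that mark donor and acceptor in capitals.
SIN3B donor, chr2:60751830-60751849, minus strand: gcttggcaagGTcgcttcct
SIN3B acceptor, chr2:60750747-60750766, minus strand: tcacagacAGgtgggcctgg

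TEX26, a gene named for its expression in testis, showed the same kind of change. The main isoform in BMI was spliced at a 108-base intron of the 3′ UTR, chr11:7593059-7593166 on the plus strand, which the main isoform in DSE kept. The spliced isoform held 80.6%, 85.5% and 81.5% in the BMI libraries and 0% in all 3 DSE libraries, a difference of -82.5 points ± 3.93 (limma adjusted p = 0.00969). The isoform with the intron held 67.0%, 81.7% and 48.5% in DSE and 0% in all 3 BMI libraries. The groups did not overlap, but with the wide spread in DSE this difference of 65.7 points ± 8.64 had an adjusted p of 0.0798. The CDS has 888 bases in both isoforms.
TEX26 donor, chr11:7593049-7593068, plus strand: aaatctgaagGTaactggtt
TEX26 acceptor, chr11:7593157-7593176, plus strand: taaacaatAGgatcgtttaa

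In 3 more genes the isoforms differed by a gap in the last exon whose ends were not those of a standard intron. In SNX24, a sorting nexin, the main isoform in BMI lacked 21 bases of the 3′ UTR and ended 171 bases earlier. It held 70.9%, 73.9% and 68.6% in BMI and 0% in all 3 DSE libraries, a difference of -71.1 points ± 3.79 (limma adjusted p = 0.00983). The isoform with these bases held 62.1%, 88.2% and 96.6% in DSE and 16.0%, 10.3% and 24.5% in BMI, without overlap and with an adjusted p of 0.116. In ANKRD10, an ankyrin repeat protein, the reverse held: the main isoform in DSE lacked 29 bases of the 3′ UTR. It held 32.5%, 39.0% and 41.2% in DSE and 0% in all 3 BMI libraries, a difference of 37.6 points ± 3.17 (limma adjusted p = 0.0258). The missing bases are in capitals.
SNX24, chr2:126507013-126507041, plus strand: ggggTTAGCTTCTAACGTCAGCACAtaag
ANKRD10, chr11:77323890-77323918, minus strand: GTGGAGGGCAGAGGGCGCCCAGCTCCACG

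The third such gene was ENSSSCG00000052432, which has no symbol in the annotation and overlaps SLA-2 of RefSeq, a class I gene of the pig major histocompatibility complex that presents peptides to T cells. The main isoform in BMI lacked 124 bases of the 3′ UTR, chr7:22959210-22959333 on the plus strand, a gap that begins with CT and ends with TC, and ended 111 bases earlier. It held 97.7%, 97.4% and 98.2% in BMI and 6.20%, 15.1% and 3.73% in DSE, a difference of -89.4 points ± 4.399 (limma adjusted p = 0.00969). The isoform with these bases held 60.5%, 81.8% and 66.8% in DSE and 0.752%, 0% and 0% in BMI, a difference of 69.5 points ± 6.31 (adjusted p = 0.0313). The CDS was 1095 bases in both. Genes of this complex are alike in sequence, and how reads were divided among them is uncertain. Full-length reads did not show this difference: the isoform without the 124 bases had none in either testis library and is marked as possible template switching of the reverse transcriptase, and the isoform with them had 45 in DSE and 34 in BMI.
ENSSSCG00000052432 gap start, chr7:22959200-22959219, plus strand: tatgagcatcCTgagaggag
ENSSSCG00000052432 gap end, chr7:22959324-22959343, plus strand: catcttcaTCcctgtcctaa

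A further set of genes differed in the donor of an early intron, in the 5′ UTR. In TEPP, named for its expression in testis, prostate and placenta, the donor used in DSE lies 17 bases downstream of that used in BMI. Both donors begin with GT and the CDS is 651 bases in both. The annotated ends differ too, by 56 and 94 bases. The isoform with the downstream donor held 64.5%, 60.1% and 52.0% in DSE and 1.97%, 5.49% and 3.46% in BMI. The isoform with the upstream donor held 35.5%, 39.9% and 48.0% in DSE and 98.0%, 94.5% and 96.5% in BMI. In DSE both were used, while BMI relied on 1 of them. The differences were 55.2 points ± 4.55 (limma adjusted p = 0.0258) and -55.2 points ± 3.75 (adjusted p = 0.0148). The 17 bases between the donors are in capitals.
TEPP, chr6:19832516-19832544, plus strand: ctgccgGTGAGGTACCCACGACGgtgggt

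PFKFB2, a bifunctional enzyme that makes and degrades an activator of glycolysis, used donors 109 bases apart in its 5′ UTR. The isoform with the upstream donor held 59.99%, 50.9% and 59.9% in DSE and 0% in all 3 BMI libraries, a difference of 56.9 points ± 3.96 (limma adjusted p = 0.0153). The isoform with the downstream donor held 59.6%, 47.3% and 46.0% in BMI and 9.63%, 4.32% and 10.3% in DSE, again without overlap, with an adjusted p of 0.0591. Both have GT at the donor and a CDS of 1554 bases. In the Iso-seq libraries the upstream and downstream forms had 20 and 3 full-length reads in DSE and 0 and 2 in BMI (Fisher's exact test, adjusted p = 0.121). The first 2 bases of each intron are in capitals.
PFKFB2 donor in DSE, chr9:67680797-67680816, plus strand: aggagagccgGTgaggtgta
PFKFB2 donor in BMI, chr9:67680906-67680925, plus strand: tgccttccaaGTaagtgctc

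PROSER3, a protein rich in proline and serine, used donors 51 bases apart in the 5′ UTR. The BMI main isoform held 67.4%, 64.8% and 77.6% in BMI and 0% in all 3 DSE libraries, a difference of -69.9 points ± 4.78 (limma adjusted p = 0.0148). In LANCL1, a glutathione-binding protein, the 2 main isoforms differ by 20 bases at the first donor, which is GT in the DSE form and AT in the BMI form. The DSE form held 71.6%, 67.9% and 34.8% in DSE and 1.01%, 1.63% and 0.833% in BMI, and the BMI form 42.0%, 72.9% and 60.5% in BMI and 0%, 0% and 31.3% in DSE. DSE replicate 3 thus held both forms, and neither passed the test (adjusted p = 0.157 and 0.316). The 20 bases are in capitals.
LANCL1, chr15:113149858-113149887, minus strand: aacagATGGGCCTAATTTGTACCAGgtggg

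**Figure D2:**
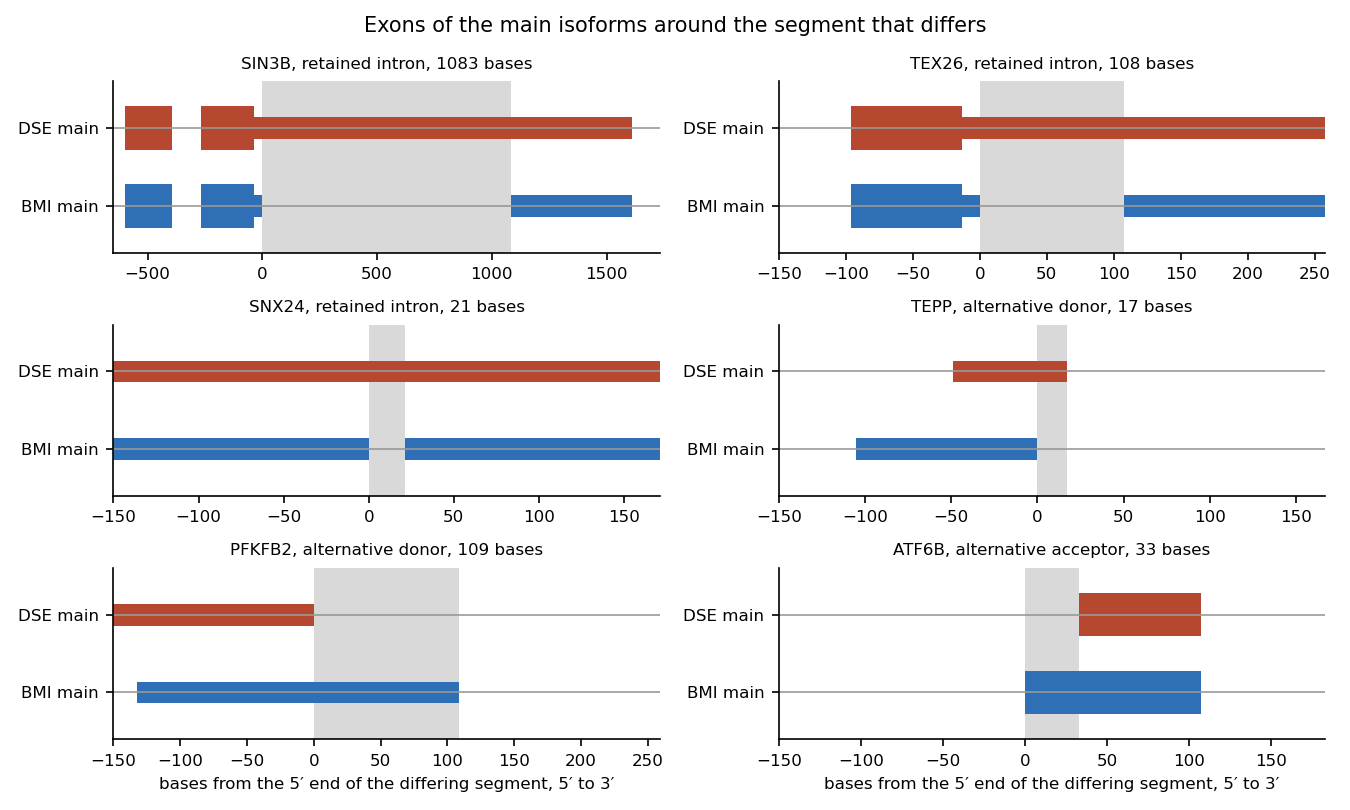
Exons of the main isoforms of DSE (red) and BMI (blue) around the segment that differs (grey) in 6 genes, in bases from the 5′ end of that segment; tall boxes are CDS and low boxes are untranslated. The segment is 1083 bases in SIN3B and 17 bases in TEPP, and lies in CDS only in ATF6B among the 6.

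In other genes the differing bases were coding. ATF6B, a transcription factor that is held in the endoplasmic reticulum membrane until stress releases it, had a CDS of 2097 bases in the DSE form and 2130 bases in the BMI form. The BMI form starts an exon 33 bases earlier, after an intron that ends with AC in place of AG. It held 34.4%, 43.9% and 38.3% in BMI and 6.603%, 3.21% and 6.45% in DSE, a difference of -33.5 points ± 3.56 (limma adjusted p = 0.0484). The DSE form held 44.2%, 67.0% and 40.7% in DSE and 25.6%, 5.75% and 23.5% in BMI, which did not pass the test (adjusted p = 0.368). The 33 bases present only in the BMI form were these.
ATF6B, chr7:24162887-24162919, minus strand: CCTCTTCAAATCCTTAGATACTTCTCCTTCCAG

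PRRC2B, a protein with proline-rich and coiled-coil regions, had a BMI main isoform that lacked 12 coding bases of a CAG repeat at the end of an exon. It held 64.2%, 62.1% and 56.5% in BMI and 0% in all 3 DSE libraries, a difference of -60.9 points ± 3.75 (limma adjusted p = 0.0133). This isoform had 0 full-length reads in DSE and 1 in BMI. It is marked as not canonical and as possible template switching of the reverse transcriptase. JARID2, a cofactor of a Polycomb repressive complex, had a BMI main isoform without 13 coding bases in a run rich in C and G. Its first exon also differs, and its annotated CDS is 2058 bases against 3738 bases in the DSE main isoform. It held 28.6%, 28.7% and 34.2% in BMI and 0% in all 3 DSE libraries, a difference of -30.5 points ± 2.56 (adjusted p = 0.0258). The missing bases are in capitals. Whether they were spliced out or absent from the DNA of these pigs was not tested, here and for the gaps above.
PRRC2B, chr1:271399988-271400017, plus strand: cagcagcagCAGCAGCAGCAGgtaaacaga
JARID2, chr7:11579984-11580012, plus strand: cagcccagGCCCCGGCCCCAGccccggcc

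C1orf141, an uncharacterised gene, changed at its first donor and its first acceptor. The DSE main isoform held 25 coding bases more at the donor and began the next exon 1 base later, and it also held a coding exon of 187 bases that the BMI main isoform lacked. The BMI form had an intron with AA and TA ends there, and the DSE form one with GT and AG ends. Transcripts with the DSE donor together held 83.6%, 95.7% and 97.6% in DSE and 1.75%, 0.194% and 0% in BMI, and those with the BMI donor 88.4%, 88.0% and 91.5% in BMI and 0.499%, 4.30% and 2.41% in DSE. Both called isoforms carried the BMI donor. Of these, the main isoform held 35.5%, 42.4% and 44.5% in BMI and 0% in all 3 DSE libraries, a difference of -40.8 points ± 3.32 (limma adjusted p = 0.0258), and had 67 full-length reads in BMI and 0 in DSE. The 25 bases are in capitals.
C1orf141, chr6:145444461-145444489, plus strand: gtAATCTCACACATCTTAACCTAGCAGgt

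**Figure D3:**
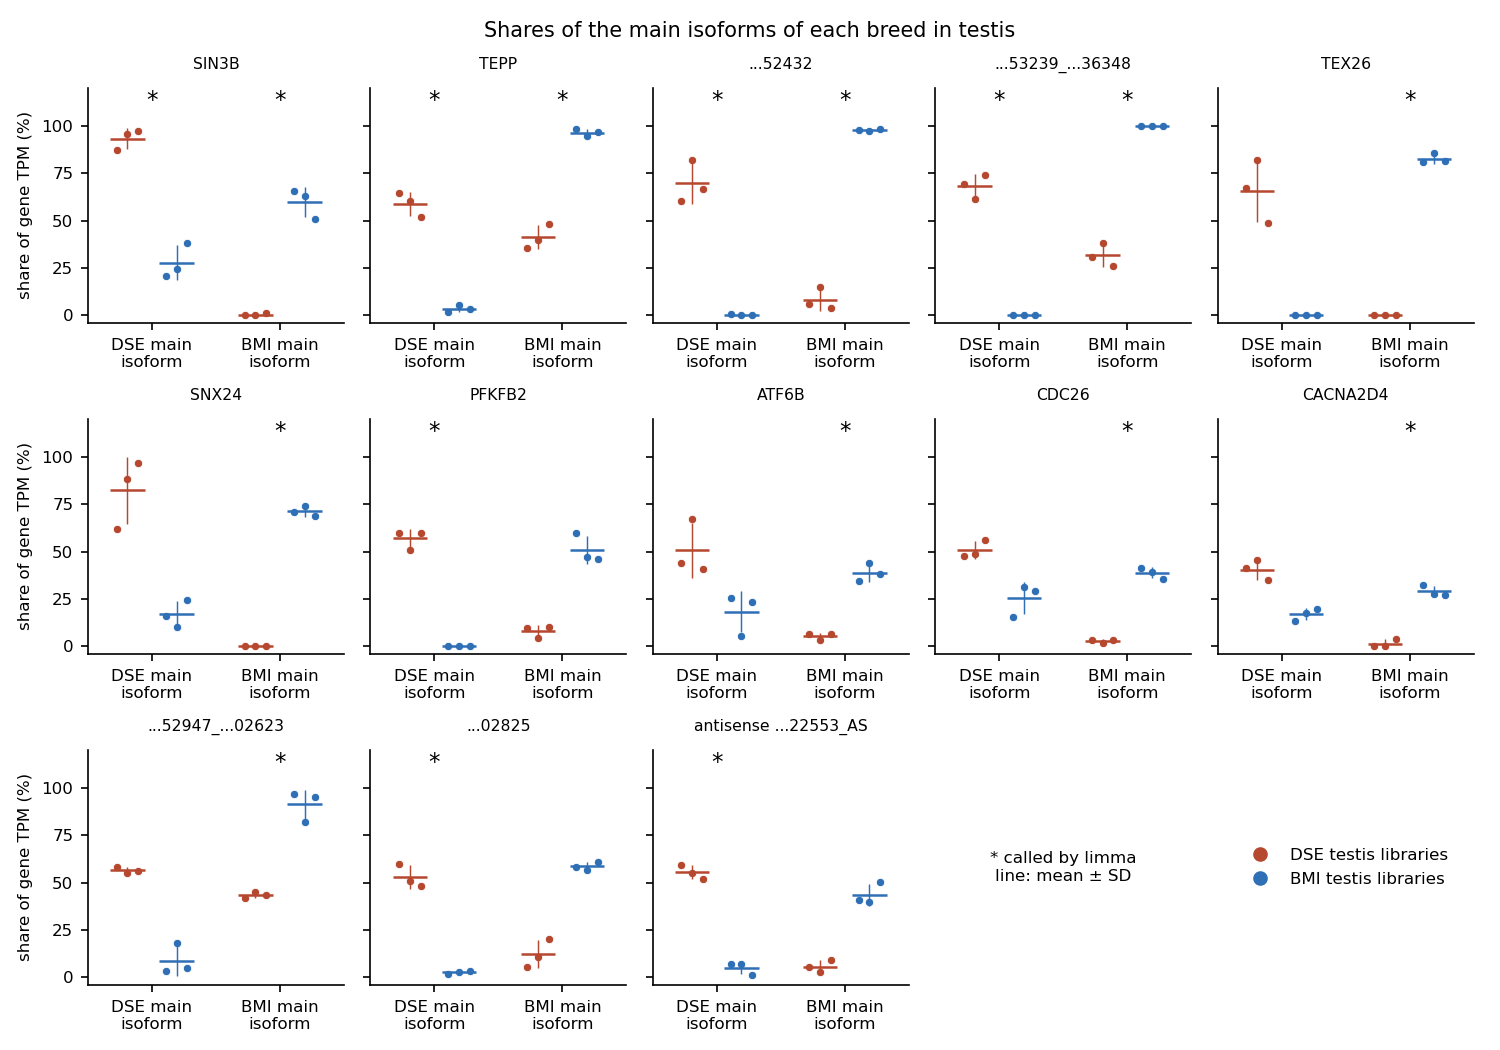
Share of gene TPM (%) held by the main isoform of DSE and by that of BMI in each of the 6 testis libraries, for the 13 genes with a full change and a called isoform; points are libraries, lines the mean ± SD of 3 libraries, and stars called isoforms. Long gene identifiers are shortened to their last digits. In TEX26 each main isoform is at 0% in all 3 libraries of the other breed.

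IFT88 was the only gene called in the list of axoneme and flagellum genes described below. It is part of the intraflagellar transport machinery that builds cilia and the flagellum. The DSE main isoform held 41.4%, 34.3% and 36.2% in DSE and 0% in all 3 BMI libraries, a difference of 37.3 points ± 2.89 (limma adjusted p = 0.0258). The BMI main isoform held 86.5%, 87.2% and 85.5% in BMI and 31.7%, 38.4% and 38.4% in DSE, a difference of -50.3 points ± 3.30 (adjusted p = 0.0148). They differ in the first exon and in a 36-base untranslated exon of the DSE form, which is followed by TT in place of GT, and both encode 2451 bases. The DSE form had 16 full-length reads in DSE and 0 in BMI, but the BMI form had 0 in both, so that the BMI library held no read of either. The end of this exon is shown with the 2 bases that follow it in capitals.
IFT88, chr11:947269-947288, plus strand: tgcagccattTTgagttgat

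Alternative first exons and larger changes were found in several named genes. In ENSSSCG00000002825, which overlaps the carboxylesterase CES1 of RefSeq, the isoforms start at different first exons and the CDS is 1701 bases in the DSE form and 1413 in the BMI form. The DSE form held 59.8%, 50.7% and 48.2% in DSE and 1.77%, 3.01% and 3.35% in BMI, a difference of 50.2 points ± 4.23 (limma adjusted p = 0.0258). This DSE form is marked as possible template switching of the reverse transcriptase and had 3 full-length reads in DSE and 0 in BMI. In CDC26, a subunit of the anaphase-promoting complex, the BMI form lacks 2 untranslated exons and ends 2193 bases further downstream. It held 41.5%, 39.3% and 35.6% in BMI and 3.30%, 1.72% and 3.42% in DSE, a difference of -36.0 points ± 2.89 (adjusted p = 0.0258). In RDH16, a retinol dehydrogenase, the BMI main isoform held 91.7%, 89.2% and 92.0% in BMI and at most 0.213% in DSE, the largest called difference at -90.9 points ± 3.77 (adjusted p = 0.00969). It is an Ensembl transcript with no full-length read in either testis library. CACNA2D4, a calcium channel subunit, had 2 main isoforms without a CDS that differ in an exon of 258 bases and an acceptor 175 bases away, and the BMI form differed by -27.7 points ± 2.74 (adjusted p = 0.0411), a call lost on both other scales and with robust moderation.

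Called isoforms of 2 further genes began at exons followed by unusual donors. In GPATCH8 the BMI main isoform, with AT at its first donor, held 59.0%, 42.5% and 50.5% in BMI and 0% in all 3 DSE libraries (limma adjusted p = 0.0362). In DOCK1, an exchange factor that activates Rac in cell migration and engulfment, a short BMI main isoform of 4 exons with TT at its first donor held 32.0%, 33.6% and 34.3% in BMI and 0% in all 3 DSE libraries (adjusted p = 0.0148). The gene antisense to ENSSSCG00000022553 was called for an isoform spliced at a 100-base intron with GC and AG ends, which held 59.4%, 55.1% and 51.9% in DSE and 6.84%, 7.24% and 1.14% in BMI (adjusted p = 0.0258). Whether the RNA-seq counting used strand was not given in the sources used here, and reads of that gene and its antisense partner may not have been told apart.

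At loci with tandem copies the calls are uncertain because reads may be shared. The fusion of ENSSSCG00000052947 and ENSSSCG00000002623, which overlaps GSTA1 of RefSeq, a glutathione transferase, had isoforms of 970 bases that take 4 inner exons from one copy or the other. The BMI form held 96.5%, 82.1% and 94.8% in BMI and 41.6%, 45.1% and 43.4% in DSE (limma adjusted p = 0.0328). The locus joined from ENSSSCG00000053239 and ENSSSCG00000036348 had a BMI form that held 100% in all 3 BMI libraries and 30.7%, 38.4% and 26.2% in DSE (adjusted p = 0.00983). Its DSE form has 3 exons and no CDS, against 5 exons and a CDS of 345 bases, and held 69.3%, 61.6% and 73.8% in DSE and 0% in BMI (adjusted p = 0.0148). The summed TPM of this locus was 224, 40.4 and 170 in DSE and 7.80, 11.9 and 10.9 in BMI, so that the DSE libraries were also higher in level.

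In 10 genes a transcript was called while the main isoform was the same. In TRAPPC4, a subunit of a complex that tethers vesicles, a form spliced at a donor 312 bases upstream, with a CDS of 486 bases in place of 660, held 32.9%, 42.0% and 48.1% in BMI and 0% in all 3 DSE libraries (limma adjusted p = 0.0495). In EPN2, an adaptor of endocytosis, a form spliced at a 417-base intron of the 3′ UTR held 29.3%, 26.8% and 24.05% in BMI and 1.55%, 0% and 0% in DSE (adjusted p = 0.0306). Full-length reads did not show these forms in BMI, with 0 of the TRAPPC4 form in either library and 2 of the EPN2 form in DSE and 0 in BMI. In YPEL1, of the yippee-like family, a form with a further 99-base exon held 29.0%, 27.3% and 31.7% in BMI and 0.696%, 0.402% and 0.461% in DSE (adjusted p = 0.0258), with 76 full-length reads in BMI and 6 in DSE. In PPP1R36, a regulatory subunit of a protein phosphatase, a form of 11 exons, with a further donor of its own and an earlier 3′ end, held 17.0%, 19.5% and 17.5% in DSE and 0% in BMI (adjusted p = 0.0423), with 41 full-length reads in DSE and 1 in BMI. In ATP6V1E2, a proton pump subunit of testis, a form with 95 more bases before the second exon and 15 more after the first held 26.1%, 28.6% and 31.8% in BMI and 2.62%, 1.52% and 1.23% in DSE (adjusted p = 0.0328). In each of these genes all 3 libraries of a breed lay on one side of the other breed.

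Of the other genes with the same main isoform, ENSSSCG00000062469, which overlaps SLA-1, had its main isoform at 99.1%, 98.8% and 98.2% in BMI against 60.2%, 64.3% and 48.0% in DSE (limma adjusted p = 0.0453). ENSSSCG00000059700 had 90.5%, 90.1% and 91.3% in BMI against 52.0%, 55.8% and 52.3% in DSE (adjusted p = 0.00983). ENSSSCG00000045735, without a CDS, had 93.2%, 95.1% and 91.6% in DSE against 47.4%, 43.6% and 50.9% in BMI (adjusted p = 0.0126). The last of them were ENSSSCG00000040135 and JADE1, a scaffold of a histone acetyltransferase complex. Calls in genes whose main isoforms differed, but without a full change, were also made in NCOA1, a coactivator of nuclear receptors, SLC6A6, the taurine transporter, GIGYF1, which acts in translational repression, ATXN2, an RNA-binding protein, RNF6, a ubiquitin ligase, ENSSSCG00000057041 and ENSSSCG00000062012, which overlaps PRODH2. The 10 called differences of these 9 genes lay in both directions, from -32.0 points in RNF6 to 40.7 points in ENSSSCG00000057041.

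A full change without a call was found in 61 genes. TMEM131L, a transmembrane protein, had a pair unlike in size. Its DSE form has 4 exons and a CDS of 399 bases and held 91.8%, 70.2% and 87.5% in DSE and 0%, 0% and 23.1% in BMI (limma adjusted p = 0.0633). Its BMI form has 35 exons and a CDS of 4803 bases and held 98.0%, 87.5% and 64.4% in BMI and 7.97%, 28.1% and 12.5% in DSE (adjusted p = 0.119). In C16orf78 a 117-base coding exon was in the DSE form, which held 71.9%, 71.3% and 68.9% in DSE and 48.2%, 41.5% and 46.9% in BMI (adjusted p = 0.0918). In RSPRY1 the donors lie 335 bases apart in the 5′ UTR, and the form with the upstream one held 48.3%, 64.8% and 46.6% in DSE and 17.1%, 19.2% and 7.05% in BMI (adjusted p = 0.143). In TWF2, an actin-binding twinfilin, the BMI form held 99.3%, 77.4% and 98.4% in BMI and 0%, 25.1% and 0% in DSE (adjusted p = 0.0591). CHRDL2, a secreted antagonist of bone morphogenetic proteins, PDLIM5, STK24, MICU2, a regulator of calcium entry into mitochondria, CENPN, a centromere protein, and KBTBD4 had adjusted p-values from 0.205 to 0.514. The groups overlapped in the DSE form of PDLIM5. A full change was the reason for naming these genes.

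The structure of the pair of main isoforms was read from the annotation. Among the 29 genes with different main isoforms and a call, the CDS was the same in 11 (37.9%), different in 16 (55.2%), and absent from an isoform in 2. Over all 940 genes with different main isoforms it was the same in 23.1%, and between the first and second isoform of genes with 1 main isoform throughout in 16.0% of 5780 pairs. The first donor differed in 16 of the 29 (55.2%), against 56.4% of the 940 and 46.3% of the 5780. An intron kept or removed within an exon was found in 9 of the 29 (31.0%), against 19.3% of the 940 and 26.8% of the 5780. An alternative donor was found in 9 (31.0%, against 19.9% and 18.8%), an alternative first exon in 10 (34.5%, against 42.8% and 32.5%) and a cassette exon in 7 (24.1%, against 38.3% and 35.6%). An intron whose ends were not GT-AG, GC-AG or AT-AC separated the pair in 13 of the 29 (44.8%), against 20.9% of the 940 and 20.4% of the 5780. Over every 20th gene of the annotation, 98.0% of 40,624 introns had these standard ends. Of the 44 called isoforms found by Iso-seq, 13 (29.5%) had a splice site marked as not canonical, against 8.67% of the 16,467 tested, and 3 (6.82%, against 4.998%) were marked as possible template switching of the reverse transcriptase. These shares describe the pairs and were not tested.

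Shares were also summed over transcripts with the same first donor or the same last acceptor. Such sums still rest on how reads were divided among the transcripts of a gene. In JARID2, DOCK1 and NCOA1 a called first donor group had the same difference as a called transcript, at -30.5, -33.3 and -23.5 points. For first donors, 13 of 14,060 groups (0.0925%) were called, 4 higher and 9 lower in DSE, in 9 genes that all had a called transcript. The count was 16 without DSE replicate 2, and 4, 3 and 0 without BMI replicates 1, 2 and 3, and 1 and 0 without DSE replicates 1 and 3. For last acceptors, 28 of 11,324 groups (0.247%) were called, 15 higher and 13 lower, in 18 genes of which 14 had a called transcript. This count was 28 without DSE replicate 2, 7 without BMI replicate 1 and 8 without BMI replicate 2. The 4 genes without a called transcript were KATNAL1, SMARCAL1, ENSSSCG00000052944 and ENSSSCG00000055411, named here after their values were seen. In KATNAL1, a microtubule-severing protein known from Sertoli cells, transcripts with 1 last acceptor held 71.2%, 73.5% and 71.5% in BMI and 7.58%, 8.25% and 6.47% in DSE. The difference of -64.6 points ± 1.97 (limma adjusted p = 0.000687) was spread over several transcripts. Those with the other acceptor, after an intron of 316 bases with GG and AG ends, held 89.5%, 91.8% and 88.9% in DSE and 28.8%, 26.5% and 28.5% in BMI. The libraries of each breed lay within 3 points of each other.

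Genes were then grouped by their role in testis in 11 lists. Main isoforms differed in 0 of 32 measured genes of meiotic recombination and synapsis, 1 of 37 of the acrosome and sperm-egg fusion, 1 of 29 of steroid synthesis in Leydig cells, 1 of 20 of Sertoli cells and the blood-testis barrier and 1 of 54 of energy metabolism. They differed in 2 of 21 genes of the piRNA pathway, 3 of 43 of spermatid chromatin and transcription, 6 of 51 kinases and phosphatases, 7 of 55 of the axoneme and flagellum, 8 of 56 of ubiquitin and proteolysis and 14 of 82 splicing regulators. Over all 8589 genes it was 10.9%. A full change was found in 3 axoneme genes, 1 chromatin gene and 1 ubiquitin gene, where it was found in 0.862% of all genes. By test, 1 isoform higher and 1 lower in DSE were called among 156 tested in the axoneme list, both of IFT88, and 0 in the other 10 lists, in which 58 to 305 were tested. At 0.2% called among all transcripts, such counts do not set a list apart.

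The other genes with the largest differences in these lists did not pass the test. In TTLL1, which modifies tubulin of the axoneme, the form with a 56-base untranslated exon held 62.8%, 45.4% and 56.2% in DSE and 25.8%, 23.7% and 26.6% in BMI (limma adjusted p = 0.192). In ENO4, a sperm enolase, the form with a 129-base coding exon held 52.2%, 46.1% and 51.8% in DSE and 37.4%, 11.4% and 10.7% in BMI (adjusted p = 0.353). In both the groups did not overlap, but the share of all transcripts without overlap was not counted and the genes were chosen for large differences. In PRKAR2A, a regulatory subunit of protein kinase A, the long form held 100% in DSE replicate 2 and 9.06% and 17.0% in the other DSE libraries, against 14.7% to 17.0% in BMI, and it held at least 98.1% in every library of the other glands. In LDHA, lactate dehydrogenase A, the leading testis form held 36.5% in DSE replicate 2 and 80.4% to 86.8% in the other 5 libraries. That library, in which spermatid markers were lowest, thus differed from the other 5 in these 2 genes. Without it, the difference of DSE minus BMI went from 26.1 to -2.89 points for this form of PRKAR2A and from -18.4 to -2.88 points for that of LDHA. In FDPS, an enzyme of sterol synthesis, the main form held 24.6%, 16.7% and 46.2% in DSE and 61.2%, 63.3% and 54.6% in BMI (adjusted p = 0.356). In DICER1, which cuts small RNA precursors, the DSE form held 44.9%, 37.8% and 28.1% in DSE and 23.4%, 12.8% and 13.2% in BMI (adjusted p = 0.361), and in EPC1, a chromatin regulator, the main form held 78.1%, 64.0% and 50.4% in DSE and 37.0%, 43.9% and 33.4% in BMI (adjusted p = 0.396). The others named from the lists, SOAT1, TJP1, EPS8, DCST1, SLC9C1, CAMK2G, TEX14, RAD51AP1, TDRD5, UHRF1, RBM4, MBNL2, RNF4 and SPOP, had no call.

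The other 4 glands gave 24 libraries that the testis comparison had not used, though they may come from the same animals. In a fit with gland as a term, 118 of 11,962 transcripts (0.986%) were called between the breeds. The 4 glands may also share animals with each other. The fit treats all 24 libraries as separate, so that its p-values may be too small. Of the 49 isoforms called in testis, 14 lay in genes with at least 5 TPM in all 24 libraries. Of these, 9 were called in the same direction, in 7 genes, and 0 in the opposite one. PRRC2B differed by -58.6 points ± 3.38 in the other glands (limma adjusted p = 1.57e-09) against -60.9 points in testis. ANKRD10 differed by 44.0 points ± 3.48 (adjusted p = 6.87e-08) against 37.6 points. ENSSSCG00000052432 differed by -68.0 points ± 6.39 (adjusted p = 7.36e-07) and 54.1 points ± 4.402 (adjusted p = 1.00e-07) for its 2 isoforms, and TRAPPC4 by -25.0 points ± 2.59 (adjusted p = 2.74e-06). ATF6B differed by -18.3 points ± 2.42 (adjusted p = 8.19e-05), against -33.5 points in testis. ENSSSCG00000045735, the locus without a CDS, differed by 38.7 points ± 2.97 (adjusted p = 4.37e-08), and ENSSSCG00000062469 by -34.0 points ± 5.45 (adjusted p = 0.000884). The 5 that were not called there were the isoforms of EPN2 at -3.67 and -1.20 points, RNF6 at -5.18 points, DOCK1 at -0.03 points and ATXN2 at -4.13 points. The difference between testis and the other glands was not tested.

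**Figure D4:**
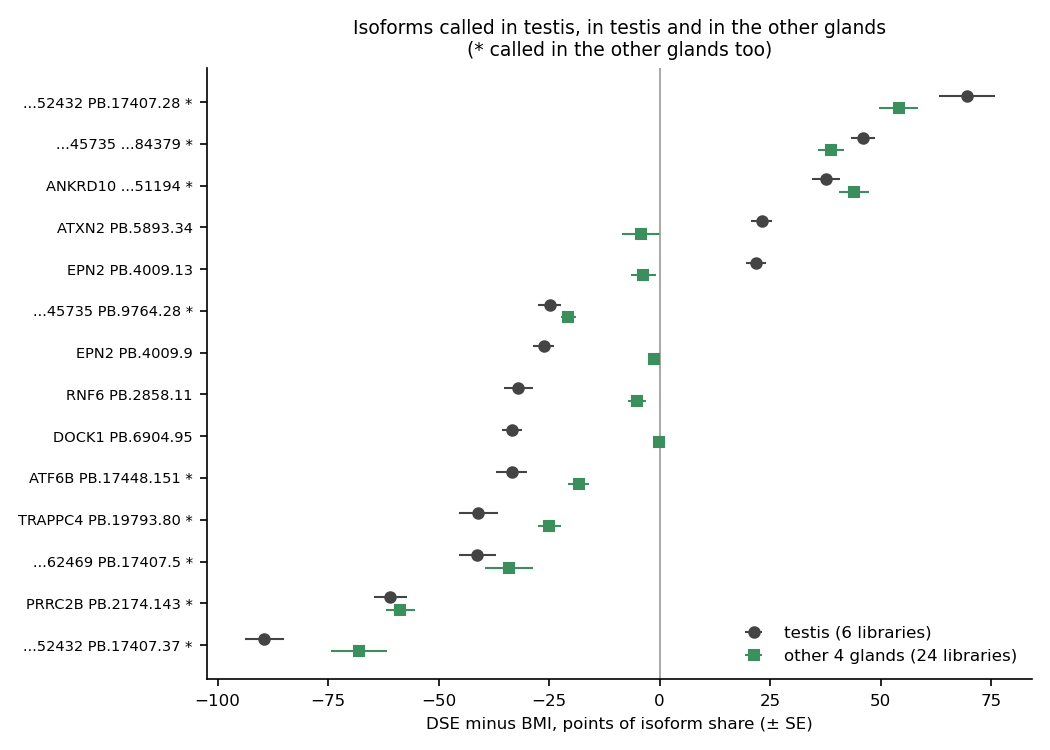
DSE minus BMI difference in isoform share (points, ± SE from limma) in testis (6 libraries, circles) and in the other 4 glands (24 libraries, squares) for the 14 isoforms that were called in testis and measured in all glands; stars mark those called in the other glands too, and long identifiers are shortened. PRRC2B lies at -60.9 and -58.6 points, whereas DOCK1 lies at -33.3 points in testis and -0.03 points in the other glands.

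Full-length reads were a second measure, with 457,778 in the DSE and 455,023 in the BMI testis library. The main isoforms of the genes with a full change, or with a call and different main isoforms, gave 90 pairs, of which 39 had no full-length read of an isoform. Of the 67 pairs with reads in both libraries, the share of the DSE main isoform was higher in the DSE library in 39, lower in 9 and equal in 19. In 18 of the equal pairs 1 form had no read in either library, so that full-length reads did not show the change of main isoform. A two-sided Fisher's exact test, which compares these 2 libraries and not the breeds, gave an adjusted p below 0.05 for 9 pairs, all in the direction of RNA-seq. In LANCL1 the DSE and BMI forms had 57 and 0 reads in DSE and 1 and 41 in BMI (Fisher's exact test, adjusted p = 1.80e-25). In C1orf141 they had 10 and 0 in DSE and 2 and 67 in BMI (Fisher's exact test, adjusted p = 1.17e-09). RSPRY1 had 25 and 47 reads against 5 and 75, ATF6B 21 and 0 against 7 and 9, and TEX26 8 and 0 against 1 and 5 (Fisher's exact test, adjusted p = 0.000175, 0.00117 and 0.0255). TCTE1, of the regulatory complex that links axonemal doublets, had 58 and 13 reads against 80 and 56, and NME8, a protein of axonemes, 235 and 4 against 92 and 8 (Fisher's exact test, adjusted p = 0.0105 and 0.0423). These last 2 genes were named after their values were seen. In SIN3B the BMI form had 0 reads in DSE and 1 in BMI, against 20 and 41 for the DSE form, so that full-length reads hardly showed the form that led in the BMI RNA-seq libraries. The same was seen in the BMI library for GPATCH8, with 2 reads of the BMI form against 25 of the DSE form, RNF6 with 5 against 72, SNX24 with 1 against 5, JARID2 with 0 against 3 and ENSSSCG00000052432 with 0 against 34. In the DSE library it was seen for ATXN2, with 2 reads of the DSE form against 21 of the BMI form, SLC6A6 with 0 against 19, and at the GSTA1 fusion locus, whose DSE form had 0 reads in DSE against 12 of the BMI form. The DSE forms of TEPP and ANKRD10 had 0 reads in either library. Of the 44 called isoforms found by Iso-seq, 34 had more reads in the breed with the higher share, 5 had fewer and 5 had none in either. Several full-length reads may stem from 1 molecule, and these p-values cover counting error only.

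**Figure D5:**
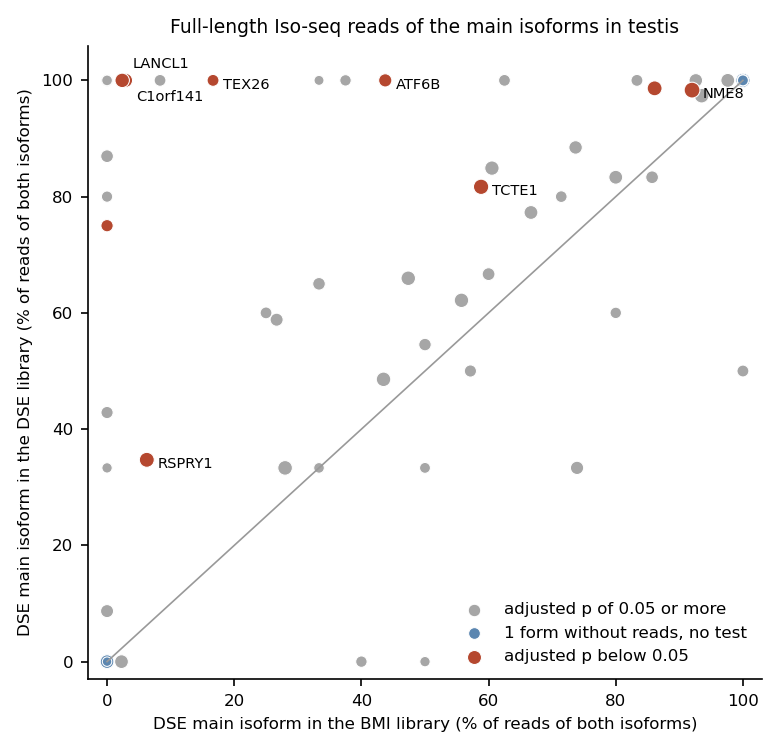
Share of the DSE main isoform among full-length reads of both main isoforms (%), in the BMI testis library (horizontal) and the DSE testis library (vertical), for 67 pairs; the area of a point grows with its number of reads, red marks an adjusted p below 0.05 in Fisher's exact test and blue the 18 pairs with no read of 1 form, which lie on top of each other at 0% or 100% in both libraries. LANCL1 lies at 2.38% in BMI and 100% in DSE, and 39 of the 67 points lie above the diagonal, 9 below and 19 on it.

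Gene levels were compared in the same libraries. Of the 8589 genes, 2 (0.0233%) were called by limma on log2(TPM + 1), where the adjusted p lay below 0.05 and the levels differed by 1 or more on the log2 scale, and 958 had an unadjusted p below 0.05. They were ENSSSCG00000002623, at 345, 330 and 283 TPM in DSE and 14.95, 40.1 and 19.9 TPM in BMI, and ENSSSCG00000060989, at 60.8, 65.8 and 48.9 TPM in DSE and 9.97, 11.6 and 12.6 TPM in BMI. Their log2 fold changes of DSE over BMI were 3.74 ± 0.36 and 2.26 ± 0.22 (SE, limma adjusted p = 0.0393 for both). The count was 57 without DSE replicate 2, 0 without BMI replicate 1 or 3 or DSE replicate 1 or 3, and 1 without BMI replicate 2. Neither gene had a called isoform, but the first is part of the GSTA1 fusion locus above, which did, and reads may be shared between them. The 39 genes with a called isoform had a median log2 difference of -0.59, against -0.08 over all genes, and 29 of the 39 were lower in DSE, against 56.8% of all genes. Their levels did not overlap between the breeds in 16 of 39, against 25.3% of all genes, beside 0.0233% called.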

How the data were processed

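Testes of 2 pig breeds were measured by short-read RNA-seq (3 libraries a breed) and Iso-seq (1 a breed). The authors deposited a table of TPM per transcript, made with Salmon on a reference that joined Ensembl transcripts with isoforms of their own, found by clustering Iso-seq reads, aligning them to Sscrofa11.1 with GMAP and classifying them with SQANTI3. The authors also deposited, per Iso-seq isoform, counts of full-length reads and the percent of A bases downstream of the transcript end. The submitters' processing notes name Bowtie 1.3.1, GSNAP, STAR 2.7.10a and Salmon 1.9.0. The labels state rRNA depletion for RNA-seq and the study's methods poly-T selection. The deposited table of small RNA abundances was not used here. TPM keeps no depth, so that no counting interval was given for shares.

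Transcript and gene identifiers were joined through the deposited annotation. Its 20 chromosomes had the names of the reference genome used for intron ends and sequences, and the annotation ended within each of them. Shares were computed in percent for genes with 2 or more transcripts and at least 5 TPM in all 6 libraries. Differences of DSE minus BMI were tested with limma 3.58.1 (R 4.3.3, empirical Bayes with an intensity trend) on the 6 libraries, for transcripts with a mean share of at least 5%, with Benjamini-Hochberg adjustment over all of them. This test is for differences in mean share and assumes that the spread is alike in both breeds. Calls needed an adjusted p below 0.05 and 10 points. The same test was applied to shares summed by first donor or last acceptor, to the 24 libraries of the other 4 glands with gland as a term, and to log2(TPM + 1) of genes. Structures were compared by exon coordinates, which count from 1. Overlapping RefSeq names were used where a gene had no symbol. The scripts, in Python 3.11.15 with pandas 2.3.3 and scipy 1.17.1, were tested on simulated data. Differences of 20, 40 and 60 points, each planted in 200 transcripts, were called in 0%, 38.5% and 71% of them. Beside these, 0, 12 and 16 transcripts without a planted difference were called. The alternatives were other share scales, filters, variance settings, a replicate block and leaving out each library.

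Genes named were up to 25 with a full change, those with both main isoforms called first and then by the smaller of the 2 absolute differences, all genes with a called transcript, and the 2 genes of each of 11 lists with the largest difference. For 1 gene chosen by this rule the result is not reported here. The lists and the set of genes were chosen with earlier results of these data known.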

Additional observations from a re-analysis of the deposited data

How the results depend on the processing

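Counts depended on the libraries and filters. The 49 called transcripts became 0 to 44 called without a replicate, of which 0 to 17 were among the 49. An expression minimum of 1 TPM gave 96, robust variance moderation 31 and no filter on share 18. Other settings gave 43 at 20 TPM, 64 on the log ratio scale, 68 on the arcsine scale and 63 without the trend. The 13 first donor groups became 0 to 16 without a replicate and 1 at 20 TPM. The 28 last acceptor groups became 7 to 28 without a replicate and 50 at 1 TPM. The 118 transcripts called in the other glands became 205 at 1 TPM, and the 2 genes called by level became 0 to 57 without a replicate. The 940 genes with different main isoforms became 1569 at 1 TPM, 356 at 20 TPM and 336 with a gap of at least 5 points. None of the 49 called differences changed its sign. Among the isoforms not called, the main isoforms of 7 list genes changed sign when a library was left out. The differences ranged from -18.6 to 1.30 points in TJP1, -24.6 to 4.87 in EPS8, -15.6 to 1.44 in SLC9C1, -11.1 to 15.7 in DCST1, -7.01 to 6.40 in TDRD5 and -10.9 to 6.54 in RBM4, and in PRKAR2A from -2.89 to 42.6 for the long form and -25.4 to 2.99 for the short one. The 74 full changes became 113 to 160 without a replicate, 114 at 1 TPM and 37 at 20 TPM. Leaving out a library leaves fewer degrees of freedom, and the cause of the other shifts was not tested.

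Replicate numbers did not pair the samples: same-numbered libraries correlated at -0.18, 0.06 and -0.15 in their deviations. With a replicate block, 0 transcripts, 0 first donor and 0 last acceptor groups were called, 89 transcripts in the other glands and 6 genes by level, with fewer residual degrees of freedom.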
